A study of Mus musculus with 4 samples.

Results

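Lysosomal genes were examined as a group of 46 among the 21887 protein-coding genes placed on named chromosomes. They comprised 12 proteases, 12 glycosidases and sulfatases, 5 lipid hydrolases and soluble cofactors, 5 membrane proteins and 12 genes of the vacuolar proton pump. The members were a named list, and no measured value of these libraries entered the choice rule. All 46 were found in the gene table. The data were ATAC-seq peak lists, in which a transposase marks accessible DNA, from mouse bone marrow-derived macrophages. Wild-type (WT) libraries came from littermates of the knockout mice, whose own Cre and floxed alleles are not specified in the labels. Knockout (KO) libraries came from Ezh2fl/fl;LysM-Cre+/- mice, in which Cre expressed from the Lyz2 locus of myeloid cells deletes Ezh2, the catalytic subunit of Polycomb repressive complex 2. Both genotypes were grown for 7 to 10 days with L929 conditioned medium and then spent 24 hours in conditioned medium of the mouse hepatoma line Hepa1-6. There were 2 libraries per genotype, and unexposed macrophages were not analysed here. Neither the age nor the number of the animals is stated, so the spread between replicates may be technical only. The SDs over 4 libraries below also hold any difference between the genotypes. In such bulk libraries, fewer cells with an open site and a less accessible site in each cell cannot be told apart.

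Lysosomes are acidic compartments in which hydrolases break down proteins, glycans and lipids that reach them by endocytosis, phagocytosis or autophagy. The V-ATPase, a rotary pump with a cytosolic V1 part that hydrolyses ATP and a membrane V0 part that carries protons, sets the low pH these enzymes need. Many lysosomal genes carry an E-box with the core CACGTG near their start, known as the CLEAR element, which is read by the transcription factors TFEB, TFE3 and MITF. Macrophages are rich in lysosomes because they digest dead cells, microbes and lipoproteins.

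The 4 lists held 67055 to 72887 peaks, and merging peaks that overlapped by at least 1 bp gave 91858 regions. The labelled cell type was checked with fixed markers at gene ends, meaning within 1 kb of either annotated end of a gene. All 10 macrophage markers, among them Spi1, Csf1r and Adgre1, met this in all 4 libraries. Among markers of other cell types, those called at an end in all 4 libraries were 1 of 4 neutrophil, 1 of 3 B cell, 1 of 3 T or NK cell, 2 of 3 dendritic cell, 1 of 2 fibroblast and 0 of 2 hepatocyte markers. The hepatocyte marker Alb was called at an end in 2 of the 4 libraries and Afp in none. Their part in the results below was not tested.

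The promoters that carried the E-box core are shown first. Most of them lay in accessible DNA in every library, as did most promoters of lysosomal genes. RefSeq promoter windows on GRCm38.p6, the assembly behind mm10, run from 250 bases before to 50 bases after a start site, and 38 of the 46 genes had 44 such windows. The core CACGTG, searched on both strands, stood in the windows of 16 of these genes (42.1%), against 8.91% of the 17492 protein-coding genes with a window. With the T of the CLEAR element in front of it (TCACGTG on either strand, which contains the former motif), 14 genes (36.8%) had a match against 5.0% of all. Among the windows overlapped by a region called in all 4 libraries, 35.0% of those of the lysosomal genes and 10.6% of those of all genes held the core. The first match of each of the 14 genes is given on the gene's strand with up to 15 bases at either side of the core, and capitals mark the core and any T or A that flanks it as in the element.
Lamp1, chr8:13159085-13159120, + strand: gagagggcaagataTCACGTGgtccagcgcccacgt
Mcoln1, chr8:3500433-3500468, + strand: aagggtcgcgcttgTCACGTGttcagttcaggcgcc
Cln3, chr7:126583365-126583400, - strand: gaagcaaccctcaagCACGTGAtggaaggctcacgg
Ctsa, chr2:164833746-164833781, + strand: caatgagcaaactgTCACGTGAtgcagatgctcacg
Ctsd, chr7:142388052-142388077, - strand: tccccCACGTGAcctgtatccagtca
Lgmn, chr12:102439121-102439156, - strand: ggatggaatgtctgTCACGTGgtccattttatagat
Glb1, chr9:114401015-114401050, + strand: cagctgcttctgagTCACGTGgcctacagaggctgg
Gla, chrX:134601212-134601247, - strand: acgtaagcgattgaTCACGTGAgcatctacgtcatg
Gaa, chr11:119267808-119267843, + strand: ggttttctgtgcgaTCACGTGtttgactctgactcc
Naglu, chr11:101070006-101070041, + strand: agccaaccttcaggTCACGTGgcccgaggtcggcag
Arsa, chr15:89477420-89477455, - strand: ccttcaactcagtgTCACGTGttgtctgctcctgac
Atp6v0b, chr4:117887345-117887380, - strand: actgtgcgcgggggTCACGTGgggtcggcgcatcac
Atp6v0d1, chr8:105566047-105566082, - strand: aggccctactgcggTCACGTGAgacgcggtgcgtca
Atp6v1a, chr16:44139370-44139405, - strand: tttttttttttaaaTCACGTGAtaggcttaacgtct
These matches are letters in a window and not shown to be bound. In 7 of the 14 genes at least 1 core had the flanking T on both strands. The first core of the 14 windows lay at positions from -245 to -3 relative to the start site, with a median of -66.0.

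Cores were then set against the peaks of each library. Of the 25 cores in windows of lysosomal genes, 20 (80.0%) lay inside a peak in each of the 4 libraries, which compares with 63.0% of the 1855 cores in all promoter windows. Promoter windows of lysosomal genes, with cores or without counted together, were also called more often in all 4 libraries (90.9% against 50.6%). Counted by gene, 12 of 38 lysosomal genes (31.6%) and 5.51% of all genes had a core inside a peak of every library. The E-box-bearing windows of Arsa, which encodes arylsulfatase A, and the second window of Lgmn, which encodes legumain, overlapped no region in any library. At Cln3, which encodes a lysosomal membrane protein lost in juvenile Batten disease, the matches stood in an internal window, and 1 of its 2 cores lay inside a peak of WT replicate 2 and of KO replicate 2 and in no other library. Lamp1, which encodes the most abundant type of lysosomal membrane glycoprotein, had 4 cores at -61, -45, -28 and -15. The 250 bases upstream of its start site are printed because all 4 cores lay inside a peak of every library.
Lamp1 upstream, chr8:13158911-13159160, + strand: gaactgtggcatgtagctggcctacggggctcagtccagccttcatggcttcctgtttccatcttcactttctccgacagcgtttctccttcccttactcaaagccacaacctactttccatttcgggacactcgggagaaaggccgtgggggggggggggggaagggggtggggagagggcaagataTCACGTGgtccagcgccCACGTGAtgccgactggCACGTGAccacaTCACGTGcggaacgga

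**Figure D1:**
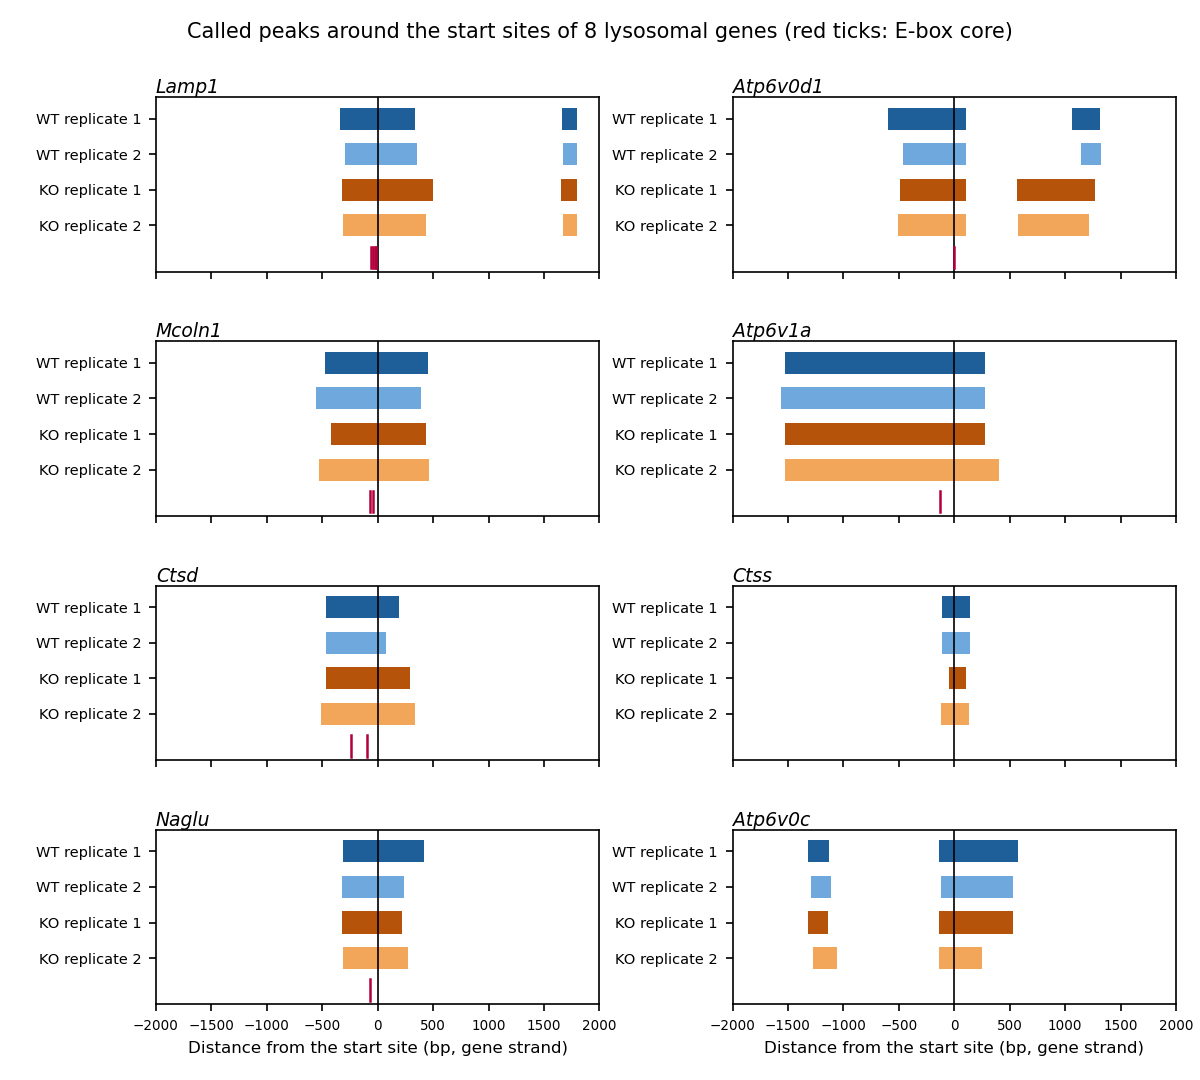
Peaks called in each library around the start sites of 8 lysosomal genes, with distance from the start site on the gene's strand in bp on the x axis and 1 bar per peak. Red ticks mark the E-box cores of the promoter window, such as the 4 cores of Lamp1 between -61 and -15, and Ctss and Atp6v0c have none. Peaks at the starts of Lamp1, Mcoln1, Naglu and Atp6v1a span the start site in all 4 libraries.

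Nearly every lysosomal gene had accessible DNA at one of its ends in both genotypes. Of the 46 genes, 45 (97.8%) were called at an end in all 4 libraries, against 54.7% of all protein-coding genes. Asah1, which encodes acid ceramidase, was the exception, with no gene-end region in any library. RefSeq gives it a span of 56999 bp, and 2 regions inside it were called in all 4 libraries. The wider of them covered 1255 and 1209 bp in WT and 1272 and 1213 bp in KO, so the genotypes overlapped. For 33 of the 45 genes a gene-end region not shared with the end of another protein-coding gene was called in each library, as for 41.2% of all protein-coding genes. Among promoter windows, 40 of 44 (90.9%) were overlapped by a region called in all 4 libraries, against 50.6% of the windows of all genes. With the weakest 50% of each list removed, 33 of the 46 genes were still called at an end in all 4 libraries, as were 40.2% of all protein-coding genes.

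Within 10 kb of the 46 genes, or inside them, lay 255 regions, from 1 at Smpd1 to 15 at Arsb. The median was 5.0 regions per gene, against 3.0 over all protein-coding genes, whose median length was 17200 bp against 22600 bp here. Of the 255, 178 (69.8%) were called in all 4 libraries, 16 in 3 libraries, 15 in 1 library of each genotype, 4 in both WT libraries only, 1 in both KO libraries only and 41 in a single library. Over all merged regions the share called in all 4 libraries was 57.8%, and over those near protein-coding genes it was 60.5%. By place, 65 of 70 gene-end regions (92.9%, against 82.1% for all protein-coding genes), 64 of 103 regions inside genes (62.1%, against 54.0%) and 49 of 82 flanking regions (59.8%, against 56.8%) were called in all 4 libraries.

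Strength was read as a percentile, the rank of the region's highest deposited fold value among all peaks of the same library, with ties averaged and 100 the strongest. It ranks a peak within its own list and is not a level of accessibility shared between lists. Gene-end regions of lysosomal genes called in all 4 libraries had median WT percentiles of 63.8 and 66.2 and KO percentiles of 65.3 and 68.5, and those of all genes 72.5 and 73.5 in WT and 73.1 and 73.9 in KO. Inside the lysosomal genes the medians were 48.8 and 53.0 in WT and 42.1 and 41.1 in KO, against 55.7 to 58.6 inside all genes. In flanking regions the order was reversed, with 42.9 and 45.7 in WT and 51.8 and 47.5 in KO, against 54.3 to 58.2 for all genes. For the 36 genes with a region over a promoter window the median of the mean percentile was 69.1, compared with 76.9 for 8731 such regions genome-wide. Their median widths were 872.0 and 883.0 bp. Per gene, 1 leading region was taken, which was the widest one over a promoter window at a gene end (for Ids over an internal window), or the widest gene-end region where no window was given or covered, or for Asah1 the wider region inside the gene. Of these leading regions, 15 also lay at an end of another protein-coding gene. They were those of Ctsa, Ctsb, Tpp1, Hexa, Galns, Gla, Idua, Glb1, Neu1, Npc2, Cln3, Atp6v0d1, Atp6v1a, Atp6v1b2 and Atp6v1d.

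**Figure D2:**
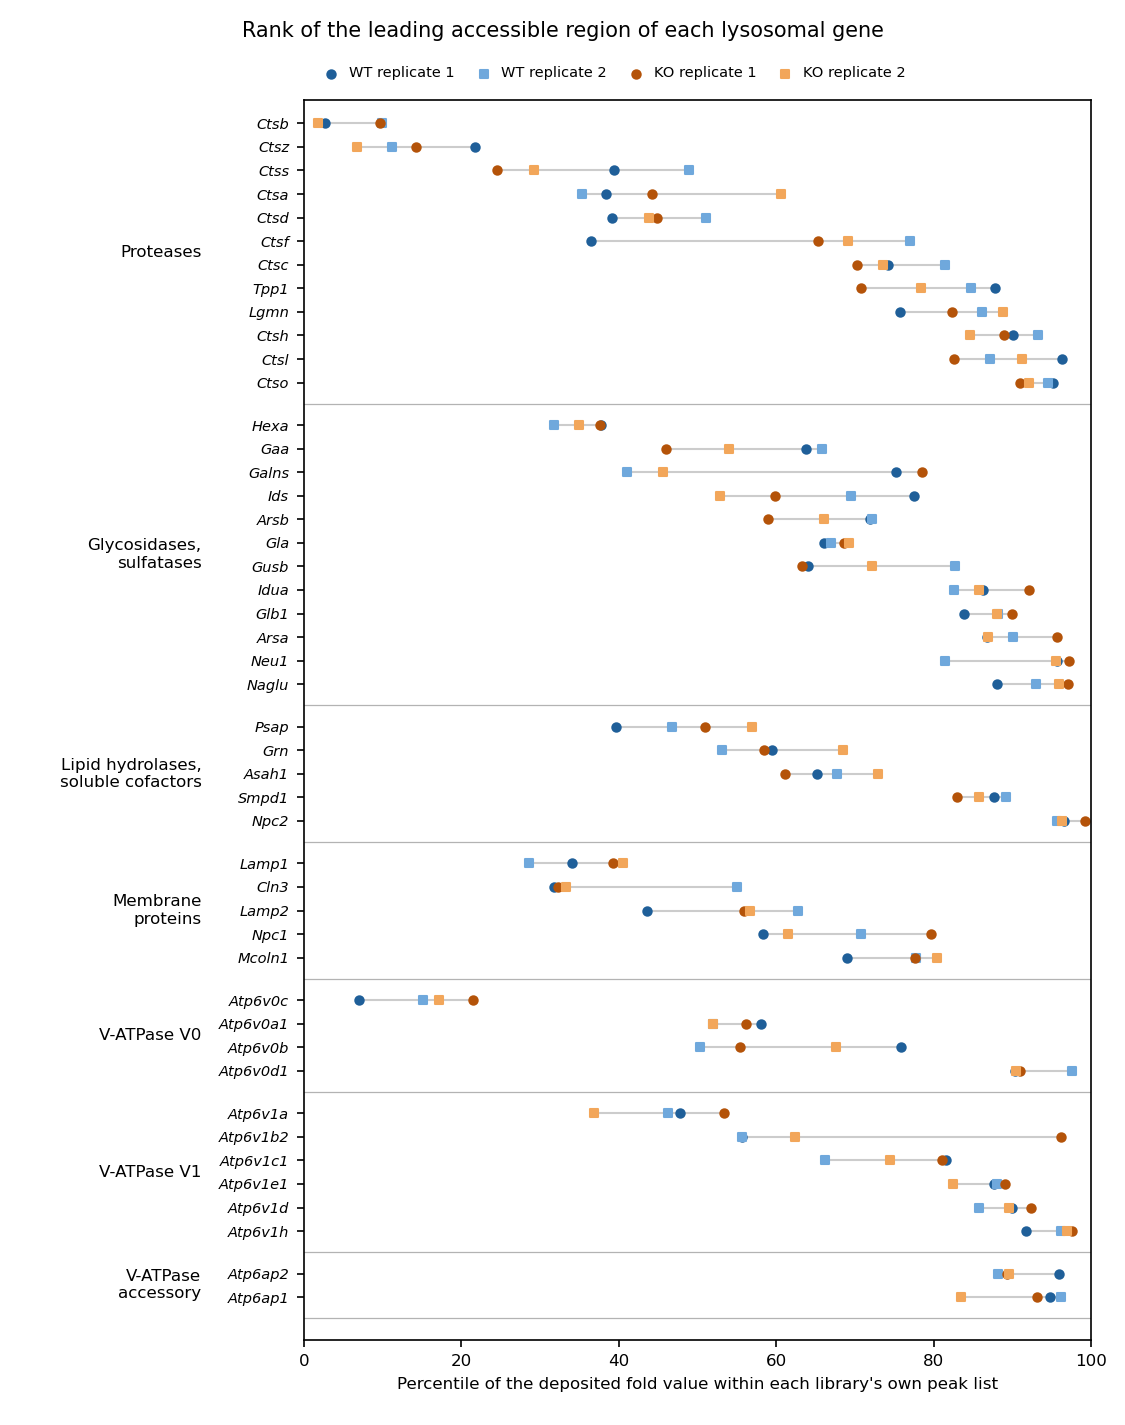
Percentile of the deposited fold value of the leading region within each library's own list (x axis) for the 46 lysosomal genes (y axis), grouped by role, with 1 point per library and a grey line over their range. Members of one role spread widely, as from 6.04 at Ctsb to 93.2 at Ctso among the proteases. The spread of the 4 points differs between genes, from an SD of 1.48 at Gla to 19.5 at Galns. At Ctsf the WT libraries alone stood at 36.5 and 77.0. The Ctsb region was taken by width, and a region at its other end ranked from 53.5 to 64.1.

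Among the proteases, the leading regions ranked from a mean percentile of 6.04 ± 4.37 (SD over 4 libraries) at Ctsb to 93.2 ± 1.98 at Ctso. Ctsb encodes cathepsin B, an abundant cysteine protease, and its leading region was the widest near any lysosomal gene, at 2498 bp on chr14:63144079-63146576. Peaks there covered 1615 and 1616 bp in WT and 2283 and 2466 bp in KO, with WT percentiles of 2.67 and 9.98 and KO percentiles of 9.65 and 1.87. Both KO peaks were longer than both WT peaks, while the ranks overlapped (limma, log2 difference 0.57 ± 0.16 (SE), adjusted p = 0.748). The region also lay at an end of Fdft1, so its gene cannot be assigned. No promoter window was given for Ctsb, so its widest gene-end region was taken. At the other end of Ctsb, a region of 1035 bp (chr14:63122128-63123162) stood at 59.1 and 55.5 in WT and 53.5 and 64.1 in KO.

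Ctss, which encodes cathepsin S, the protease that trims the invariant chain of MHC class II in antigen-presenting cells, had the narrowest leading region of the 46, at 261 bp. Its peaks covered 254 and 259 bp in WT and 155 and 247 bp in KO, and their percentiles were 39.4 and 48.9 against 24.5 and 29.3. Both KO values were below both WT values. The leading region of Ctsd, which encodes the aspartic protease cathepsin D, stood at 39.1 and 51.1 in WT and 44.8 and 43.8 in KO, where the genotypes overlapped. Ctsz ranked low, at a mean of 13.5, whereas Ctsl, Ctsh and Lgmn ranked at 89.3, 89.2 and 83.2. These encode cathepsins Z, L and H and legumain, an asparaginyl endopeptidase. Neighbours in this order, such as Ctsl with an SD over 4 libraries of 5.84 and Ctsh with 3.55, differed by less than that spread. Tpp1, which encodes tripeptidyl peptidase 1, had the gene-end region with the greatest rank difference in this role. It lay at the end away from the start site and at an end of Taf10, with WT percentiles of 88.7 and 79.9 and KO percentiles of 64.9 and 69.1 and covered lengths of 494 and 769 bp (WT) and 922 and 837 bp (KO). The KO values lay below the WT values in rank and above them in length.

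Glycosidases and sulfatases, which remove sugars and sulfate groups from glycans and glycolipids, had leading regions at mean percentiles from 35.5 ± 2.78 (SD over 4 libraries) at Hexa to 93.5 ± 4.05 at Naglu. Hexa encodes the alpha subunit of beta-hexosaminidase, lost in Tay-Sachs disease. Its start was called at 37.7 and 31.8 in WT and 37.6 and 35.0 in KO, which overlapped. A separate region of 383 bp, 414 bp beyond the other end of Hexa (chr9:59565523-59565905), stood at 52.3 and 57.9 in WT and at 75 and 76.0 in KO. Both KO ranks there lay above both WT ranks, by 20.4 points in the mean. Naglu and Neu1, which encode alpha-N-acetylglucosaminidase and sialidase 1, stood near the top at 93.5 and 92.4. Galns, which encodes a keratan sulfate sulfatase, had the largest SD of the role, 19.5. Its leading region lay 990 bp outside the gene and also at an end of Aprt. Replicates numbered 1 ranked there at 75.2 (WT) and 78.5 (KO), with peaks of 356 and 405 bp. Those numbered 2 ranked at 41.0 (WT) and 45.6 (KO), with longer peaks of 795 and 980 bp. A region of 980 bp over the other end of Galns, shared with an end of Trappc2l, varied less. Its percentiles were 84.7 (WT) and 88.7 (KO) for replicates numbered 1, and 82.8 (WT) and 79.4 (KO) for those numbered 2.

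The widest region of this role was the start of Gla, which encodes alpha-galactosidase A, at 1322 bp, shared with an end of Hnrnph2. Peaks covered 1322 and 1272 bp in WT and 1265 and 1272 bp in KO, and the percentiles were 66.0 and 66.9 in WT and 68.6 and 69.2 in KO. Arsb, which encodes arylsulfatase B, had 11 regions called in all 4 libraries along 1 gene. In 6 of them both KO ranks lay below both WT ranks, in 2 above, and in 3 they overlapped. The differences of means ran from -28.9 to 14.4 points. At its start the percentiles were 71.9 and 72.1 in WT and 59.0 and 66.1 in KO. Regions of 1 gene share their surroundings, and Arsb was singled out after its values were seen.

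The 5 genes of lipid breakdown and soluble cofactors had leading regions from a mean percentile of 48.5 ± 7.27 (SD over 4 libraries) at Psap to 96.9 ± 1.58 at Npc2, the strongest of all 46. Npc2 encodes the soluble protein that hands cholesterol to NPC1, and its start, shared with an end of Isca2, stood at 96.5 and 95.6 in WT and 99.2 and 96.3 in KO. Psap encodes prosaposin, the precursor of the saposins that present sphingolipids to hydrolases. Its start was called at 39.6 and 46.7 in WT and 50.9 and 56.9 in KO, so both KO libraries ranked above both WT libraries, by 10.8 points. The widest region near a gene of this role lay 1980 bp beyond Psap, 1311 bp wide, with WT percentiles of 28.2 and 27 and KO percentiles of 45.2 and 43.2. Peaks there covered 1198 and 1216 bp in WT and 1132 and 776 bp in KO, again without overlap. Smpd1, which encodes acid sphingomyelinase, had a single region, at 87.6 and 89.2 in WT and 82.9 and 85.8 in KO. Grn, which encodes progranulin, stood at a mean of 59.9, with overlapping genotypes.

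Membrane proteins had leading regions between 35.6 ± 5.45 (SD over 4 libraries) at Lamp1 and 76.2 ± 4.96 at Mcoln1, and none passed 80.4 in any library. The start of Lamp1 was called at 34.0 and 28.6 in WT and 39.3 and 40.5 in KO, with peaks of 683 and 648 bp (WT) and 820 and 751 bp (KO). Both measures were higher in both KO libraries than in both WT libraries (limma on widths, log2 difference 0.25 ± 0.19 (SE), adjusted p = 0.965). Mcoln1 encodes TRPML1, the calcium channel of lysosomes. The region of 1929 bp beyond its distal end, which also lies at an end of Pnpla6, stood at 46.8 and 58.6 in WT and 65.2 and 66.3 in KO and covered 1828 and 1785 bp in WT and 1771 and 1356 bp in KO. It was both the widest region of the role and its gene-end region with the greatest rank difference between non-overlapping genotypes. Lamp2, which encodes the other main lysosomal glycoprotein, had a WT replicate 2 peak of 292 bp beside 1021 bp in WT replicate 1 and 872 and 1008 bp in KO. Npc1, which encodes the membrane partner of NPC2, stood at a mean of 67.6 ± 9.67.

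The leading regions of the V-ATPase genes covered a wide range. Of the V0 genes, Atp6v0c ranked lowest, at 15.2 ± 6.09 (SD over 4 libraries), Atp6v0a1 at 54.5 ± 3.06, Atp6v0b at 62.3 ± 11.6 and Atp6v0d1 at 92.3 ± 3.53. Atp6v0c encodes the proteolipid of the rotor ring. Its start ranked at 6.97 and 15.2 in WT, below the 21.5 and 17.2 of KO. A region of 483 bp near its other end, the V0 gene-end region with the greatest rank difference, stood at 2.45 and 1.04 in WT and 22.3 and 12.9 in KO, with 483 and 341 bp in WT and 339 and 368 bp in KO. In 4 of the 7 regions of Atp6v0c called in all 4 libraries both KO ranks exceeded both WT ranks, and in 3 they overlapped. The widest V0 region, 1606 bp at a start-side end of Atp6v0a1, which encodes an a subunit of the proton channel, stood at 58.1 and 52.0 in WT and 56.1 and 52.0 in KO, with 1273 and 1335 bp in WT and 1606 and 1478 bp in KO.

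The V1 genes ranged from 46.1 ± 6.9 (SD over 4 libraries) at Atp6v1a, which encodes the catalytic A subunit, to 95.6 ± 2.66 at Atp6v1h, which encodes a regulatory subunit. Atp6v1a had the widest V1 region, 1965 bp shared with an end of Naa50. Its peaks covered 1799 and 1838 bp in WT and 1805 and 1932 bp in KO at WT percentiles of 47.8 and 46.3 and KO percentiles of 53.4 and 36.8, which overlapped. At an end of Atp6v1b2, which encodes a B subunit, and of Slc18a1, both WT libraries stood at 55.7 and the KO libraries at 96.2 and 62.4. The KO mean there was set by replicate 1, whose peaks covered 1000 bp against 1678 bp in KO replicate 2 and 1633 and 1686 bp in WT. The accessory genes Atp6ap1 and Atp6ap2, which encode proteins that help the pump to assemble, stood at 91.8 and 90.8. The start of Atp6ap1, its widest region at 714 bp, stood at 94.7 and 96.1 in WT and 93.1 and 83.4 in KO. Both KO ranks there lay below both WT ranks.

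The design asks which regions were open in a single genotype. Of 255 regions, 1 was KO-only (0.392%), against 1.47% of all merged regions and 1.40% of regions near protein-coding genes. WT-only regions numbered 4 (1.57%), against 2.03% and 1.87%. Regions called in 1 library of each genotype numbered 15, and over all regions these made up 6.20%. Under this call rule the shares near lysosomal genes were thus no larger than those elsewhere, and neither kind was found for 41 of the 46 genes. No test was run for a single region, since 2 libraries against 2 allow no two-sided exact permutation p under 0.333.

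The KO-only region of 190 bp lay inside Galns (chr8:122605486-122605675), 6026 bp from an end of the gene, at percentiles 42.0 and 44.8 in the KO lists. The WT-only region nearest to a gene end lay 53 bp beyond Ctsz (chr2:174427017-174427441) and also at an end of Nelfcd, at percentiles 4.44 and 2.15 in WT. It covered 425 bp in WT replicate 1 and 136 bp in WT replicate 2. At Ctso, the gene of cathepsin O, a WT-only region of 161 bp lay 7399 bp upstream of the start site (chr3:81925042-81925202), at 65.8 and 50 in WT. It was the strongest of the 5 by the weaker call. Lamp2 had a WT-only region of 174 bp, 5723 bp outside the gene (chrX:38462183-38462356), at 23.1 and 25.2. Ids, which encodes iduronate 2-sulfatase, had one of 144 bp inside its annotated span (chrX:70374555-70374698), at 34.4 and 62.8. Of these 5 regions 4 were under 200 bp wide (144 to 190 bp), and the counts depended on the call rule. With calls that cover at least 50% of a region, 3 of 255 were KO-only and 6 WT-only (2.21% and 3.03% of all merged regions). With the weakest 50% of each list removed, 130 regions were left, of which 3 were KO-only and 2 WT-only (1.89% and 2.67% of all). The KO-only share near lysosomal genes was then above that of all regions. Without WT replicate 1, WT replicate 2, KO replicate 1 or KO replicate 2, KO-only regions numbered 3, 7, 10 and 14 and WT-only regions 20, 9, 6 and 10, since 1 library then stands for its genotype.

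**Figure D3:**
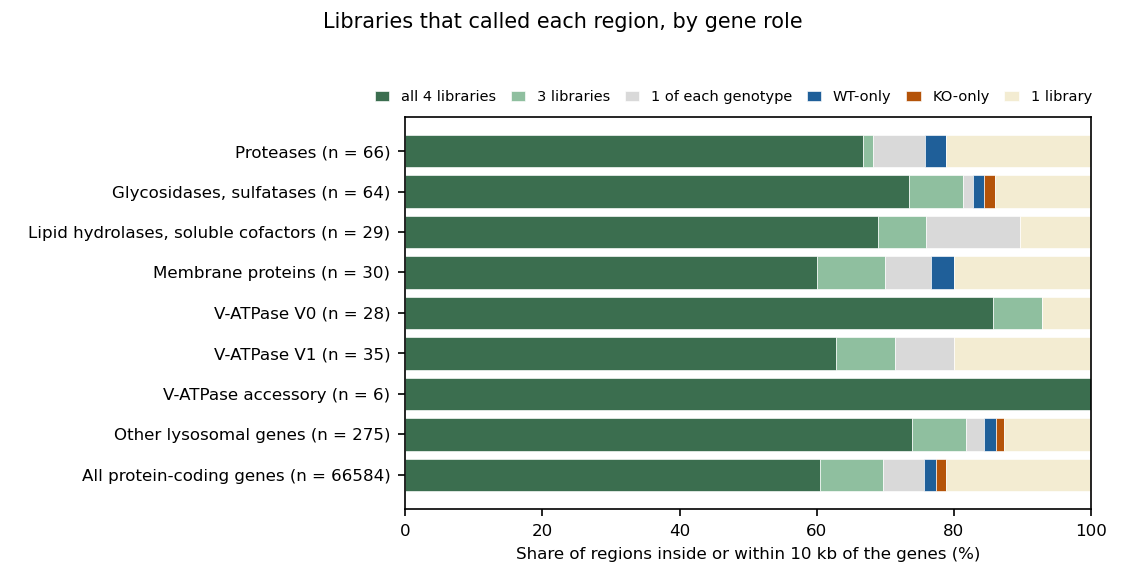
Share of regions inside or within 10 kb of the genes of each role (x axis, percent) by the libraries that called them, with the number of regions beside each role and regions near genes of more than 1 role counted in each. Most regions were called in all 4 libraries, and genotype-only regions take up 0 to 2 regions per role among the members, 5 in all.

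Ranks of the 178 regions called everywhere were then compared between genotypes. Both KO percentiles lay above both WT percentiles in 31 regions (17.4%) and below in 31 (17.4%), against backgrounds of 16.9% and 18.1% over 53062 regions. The members' shares were near the background in both directions. The median difference of means, KO minus WT, was 0.0197 points over the lysosomal regions and -0.219 over all. At gene ends 15 of 65 regions (23.1%) stood above and 12 (18.5%) below, against 18.8% and 16.2% for gene ends of all genes. By role the gene-end counts differed. Of 19 protease regions 7 were lower in both KO libraries, at Tpp1 (2 regions), Ctss, Ctsc, Ctsh, Ctso and Ctsl, and 1 was higher, at Ctsa, which encodes the protective protein of beta-galactosidase. The Ctsl region lay 112 bp beyond the end away from the start site, at 5.42 and 8.76 in WT and 4.54 and 4.22 in KO. At the start of Ctsl the genotypes overlapped. Of 8 V0 regions 4 were higher, 3 of them at Atp6v0c and 1 at Atp6v0a1, and 0 were lower. Among the other roles, 4 regions were higher and 2 lower of 15 for glycosidases and sulfatases, 1 and 1 of 5 for lipid hydrolases and cofactors, 2 and 0 of 7 for membrane proteins, 2 and 1 of 8 for V1 and 1 and 1 of 3 for accessory genes. With regions inside and beside the genes included, the balance was less uneven, with 8 higher and 12 lower of 44 for proteases and 6 higher and 2 lower of 24 for V0. Over all places the counts were 8 and 9 of 47 for glycosidases and sulfatases, 3 and 2 of 20 for lipid hydrolases and cofactors, 3 and 0 of 18 for membrane proteins, 3 and 5 of 22 for V1 and 2 and 1 of 6 for accessory genes. Naglu and Atp6v0a1 are neighbours, so 2 regions higher in KO, among them the Naglu start, counted in both of their roles. These groups are small, their regions share genes, and the contrast between roles was not tested. Without any 1 library the counts over all places rose to 61 to 71 above and 51 to 66 below, of 180 to 184 regions. A single library overlaps less often with a pair, and no share over all regions is given for these settings.

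**Figure D4:**
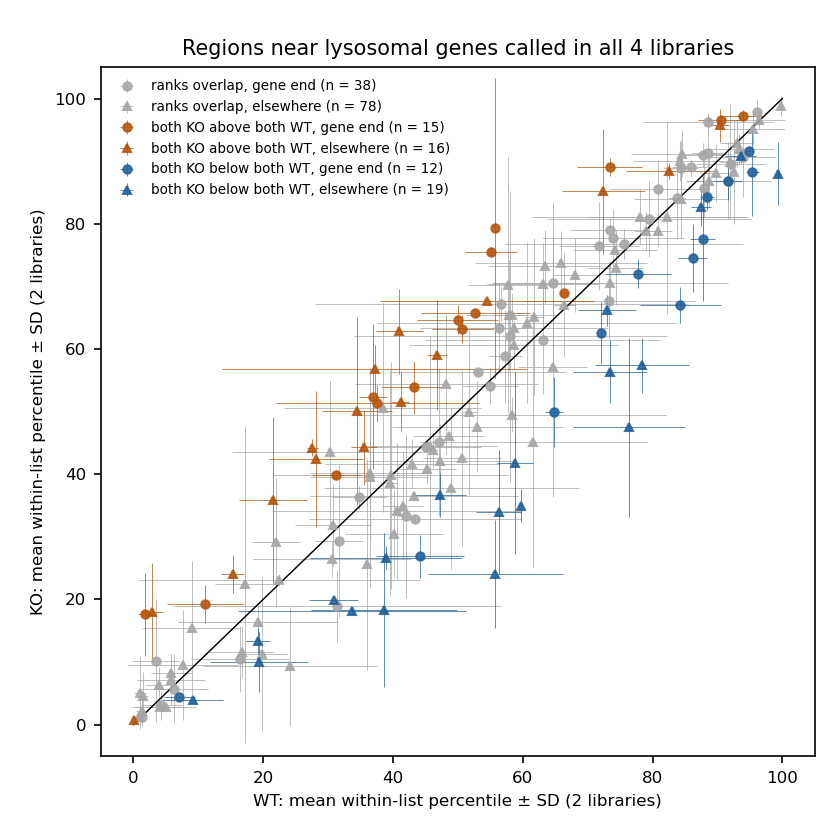
Mean within-list percentile in WT (x axis) against KO (y axis) for the 178 regions near lysosomal genes called in all 4 libraries, with SD over 2 libraries as error bars and the line of equality. Circles are gene-end regions and triangles all others, and the 31 regions with both KO ranks above and the 31 with both below lie on either side of the line.

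Widths gave no call. A limma fit of log2 covered bases, centred on each library's median and adjusted by Benjamini-Hochberg over 53062 regions, placed 0 lysosomal regions and 0 of all regions (0%) below an adjusted p of 0.05 in either direction. At an unadjusted p of 0.05, 6 lysosomal regions were wider in KO (3.37%, against 2.81% of all) and 3 narrower (1.69%, against 3.10%). The median log2 difference was 0.01 over the lysosomal regions and 0.01 over all. With a median SE of 0.22 per region, changes of modest size could not be detected. The larger differences given below did not pass either, so the absence of calls does not show that widths were equal. The smallest adjusted p was 0.612. It belonged among others to a region 563 bp downstream of the start site of Atp6v0d1, which encodes a V0 stalk subunit, with peaks of 256 and 181 bp (WT) and 710 and 641 bp (KO) (limma, log2 difference 1.66 ± 0.27 (SE), adjusted p = 0.612). Ranks there were all at or under 2.09, so it was among the weakest peaks of each list. In a region 2678 bp beyond Ctsc, the gene of dipeptidyl peptidase 1, WT peaks covered 1173 and 1217 bp and KO peaks 415 and 658 bp (limma, log2 difference -1.18 ± 0.24 (SE), adjusted p = 0.618). Its ranks went the other way, at 30.7 and 38.4 in WT and 39.5 and 60.7 in KO. Both were named after their values were seen.

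For comparison, 45 further lysosomal genes that are not members were looked up. Of these, 43 were called at an end in every library, Ctsk (cathepsin K) had none in any, and Atp6v1c2 had one in 1 library. Within 10 kb of them 203 of 275 regions (73.8%) were called in all 4 libraries. Of the 275 regions, 3 were KO-only (1.09%, against 1.47% of all merged regions) and 5 WT-only (1.82%, against 2.03%). The KO-only regions lay near Atp6v0d2 (314 bp), inside Tpcn2 (239 bp), which encodes a lysosomal two-pore channel, and inside Galc (481 bp), the galactosylceramidase gene. The WT-only regions were 2 at Sort1, which encodes the sorting receptor sortilin, and 1 each at Sumf1, Tmem192 and Lipa, the lysosomal acid lipase gene. Their percentiles ran from 5.35 to 38.1. The E-box core stood in promoter windows of 8 of the 32 further genes that had one (25%).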

How the data were processed

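The 4 peak lists, 1 per library and not pooled, carry a filter mark that no source explains. Per the submitters' processing notes, reads were handled with fastp, Bowtie2 and MACS2 on mm10, and neither versions nor read filters nor any transposase shift are stated there. The deposited score equals 10 times the −log10 q, cut to a whole number. The deposited fold column is the peak caller's enrichment over local background, and was used only as a percentile within its list. The deposited −log10 p-value and q-value columns were not used further. Depth is unknown, so a missing peak can reflect depth, and no count, interval or floor is given.

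Regions were made by merging peaks over all lists and placed at genes with RefSeq GRCm38.p6, which lists 21900 protein-coding genes, 13 of them off the chromosomes named in the lists. Widths were tested with limma 3.58.1 in R 4.3.3, tested on simulated data. Other steps used Python 3.11.15 and pandas 2.3.3. The members, lists and rules were chosen with earlier results of these data known. Values in every library are given for members with a genotype-only region, without a gene-end region in all libraries or past the width threshold, and, per role, for the widest region and the gene-end region with the greatest rank difference among genotypes that do not overlap. For the accessory pump genes, the region picked by rank difference is not reported here. Leading regions and any others named were chosen after values were seen. Alternatives covered windows, weak peaks, coverage, scaling, left-out libraries and the replicate block.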

Additional observations from a re-analysis of the deposited data

How the results depend on the processing

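Of all alternatives run, none produced a region near a lysosomal gene past the limma threshold on widths, with 0 wider and 0 narrower under each scaling, the longest peak, the 150 bp minimum, a variance trend (added after seeing the data) and each left-out library. With the replicate number as a block the counts were also 0 and 0 (8 wider and 3 narrower at an unadjusted p of 0.05). Width deviations of same-numbered libraries had a correlation of 0.0105 over 53062 regions. That value cannot show whether those libraries shared a batch. The highest deposited fold was 45.4 (WT) and 45.5 (KO) in the libraries numbered 1, and 25.5 and 25.2 in those numbered 2. A shared batch was not tested. WT-only regions numbered 2 with a window of 5 kb, 1 inside gene bodies and 2 without the weakest 50% of each list. Without those peaks 130 regions were left, of which 3 were KO-only and 76 were called in all 4 libraries. With 50% coverage 3 of 255 were KO-only. The median log2 width difference was 0.00169 without centring. Leaving out 1 library gave 3 to 14 KO-only, 6 to 20 WT-only, 61 to 71 regions with KO ranks above and 51 to 66 below, and a median log2 width difference of -0.0254 to 0.0752. It left 45 genes called at an end throughout and 180 to 184 regions called throughout. Where a single library stands for a genotype its condition is easier to meet, and in the limma fit it is assumed to vary like the other genotype. In the lone-library settings the share of all regions that were KO-only was 3.32% to 8.11% and WT-only 4.11% to 10.0%. For the rank counts no share over all regions is given in these settings. Depth is unknown and limits every missing call.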

Other observations

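Of the 41 regions near lysosomal genes called in a single library, 16 were called in WT replicate 2, 12 in KO replicate 1, 8 in KO replicate 2 and 5 in WT replicate 1. The shares were 39.0%, 29.3%, 19.5% and 12.2%, against 32.3%, 18.7%, 27.2% and 21.8% of all 21138 single-library regions. Of the 16 regions called in 3 libraries, 6 were missing only in WT replicate 1, 6 only in KO replicate 1, 2 only in WT replicate 2 and 2 only in KO replicate 2. These shares were 37.5%, 37.5%, 12.5% and 12.5%, against 25.8%, 36.5%, 17.7% and 20.0% of all 8747 such regions. All regions of 15 of the 46 genes were called in all 4 libraries, among them the 1 region of Smpd1 and the 7 of Atp6v0c. That count depends on the number of regions per gene and was not made over all protein-coding genes. Of the 34 genes with at least 3 regions called in all 4 libraries, 2 (Lamp1 and Neu1) had a higher mean rank in KO at every such region. In 5 (Atp6v1a, Cln3, Ctsh, Ctsl and Ctsz) it was lower at every such region. Each of these genes had only 3 to 5 such regions. The count was made after the values were seen, was not made over all protein-coding genes and was not tested.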
